A study of Homo sapiens with 3 samples.

Results

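The genes described here carry the symbols of proteins of the mitochondrial ribosome. They were taken as every protein-coding gene of the count table whose symbol begins with MRPL (large subunit) or MRPS (small subunit) followed by a number, a rule that uses no measured value. The rule gave 78 genes, 49 of the large and 29 of the small subunit, out of 58037 genes in the table, and they lie on 21 chromosomes. RNA was sequenced from RWPE1 cells, an immortalized line of normal human prostate epithelium, in 3 libraries, 1 per genotype label, namely OLFM4-wild type, OLFM4-Knock out and OLFM4-active. OLFM4 encodes the secreted glycoprotein olfactomedin 4. Per the study's methods, knockout cells came from CRISPR double nickase plasmids and puromycin selection, cells were sorted on a green fluorescent protein reporter, and a CRISPR activation plasmid was used to make the OLFM4-wild reporter cells. How the cells of the library labelled OLFM4-active differ from those of the OLFM4-wild library is therefore not clear from the sources used here, and this limits every value that sets them against each other. With 1 library per group there was no replicate and no test, and each comparison is between 2 libraries rather than between conditions.

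Mitochondrial ribosomes translate the few messages that the mitochondrial genome encodes, all of them membrane proteins of the respiratory chain and ATP synthase. Their RNA is transcribed inside the organelle, whereas all of their proteins are encoded in the nucleus, made in the cytosol and imported. Some of these proteins descend from those of bacterial ribosomes and are named after them, and others were added during the evolution of mitochondria.

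The libraries held 16309906 (OLFM4-wild), 58837147 (OLFM4-knockout) and 23224216 (labelled OLFM4-active) counts. OLFM4 itself had 214, 131 and 16 counts, or 11.8, 2.55 and 0.670 CPM, which are counts scaled to a library of 1000000 after adjustment by the trimmed mean of M values (TMM). OLFM4 was thus lowest in the library labelled OLFM4-active, against that label, and this library is named by its label throughout. The basal epithelial markers KRT5, KRT14, TP63 and ITGA6 were abundant in all 3 libraries, with at least 7514 counts each, whereas the luminal marker KLK3 had 2, 0 and 0 counts, the leukocyte marker PTPRC 0, 2 and 0, and the endothelial marker PECAM1 2, 1 and 1. All 4 basal markers were higher in the OLFM4-knockout library than in the OLFM4-wild library, by 0.19 (TP63, which was at -0.16 without TMM scaling) to 1.27 (KRT14) on the log2 scale. Of other luminal markers, KRT8 had 5128, 11862 and 3497 counts, a log2 fold change of -0.29 in OLFM4-knockout and -0.95 under the OLFM4-active label, and KRT18 had 3211, 9804 and 3752 counts, with 0.11 and -0.17. The fibroblast markers COL1A1, COL1A2 and PDGFRB had 549, 1324 and 521, 50, 268 and 24, and 3, 8 and 2 counts. The log2 fold changes in the same 2 comparisons were -0.23 and -0.47 for COL1A1 and 0.91 and -1.44 for COL1A2. There were few counts of the neuroendocrine markers CHGA (0, 14 and 14) and SYP (8, 15 and 8). Whether these differences have a part in the results below was not tested. In bulk RNA, more of a cell type and more RNA per cell cannot be told apart.

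The regulatory sequence of these genes is shown first, because some share features at their start sites. Promoter windows from RefSeq (build GRCh38.p14, 250 bases before to 50 after each start, 300 bases in all) were at hand for 70 of the 78 genes and for 15812 protein-coding genes in all. MRPL2, MRPL10, MRPL13, MRPL15, MRPL21, MRPL23, MRPL35 and MRPS28 were not matched. Each window was searched on both strands for exact copies of 4 motifs, named after factors known to bind such letters. They were the YY1 motif (read in capitals in the first set of sequences printed next), the ETS motif CCGGAAGT, the NRF1 motif (in capitals in the MRPL17 sequence) and CACGTG, the E-box bound by MYC and its relatives. At least 1 of the 4 motifs was in 26 of the 70 windows (37.1%) against 16.9% of all windows. The YY1 letters were in 10 of the 70 windows (14.3%) against 1.47% of all windows. The ETS letters were in 12 (17.1%) against 6.31%, with 10 of the 12 in the large subunit. The E-box, by contrast, was in 8.57% against 8.85%, and the NRF1 letters in 1.43% against 1.80%, so neither was more frequent among these genes. Among windows of genes that passed the filter on level, the 4 shares were 2.23% (YY1), 9.15% (ETS), 2.35% (NRF1) and 10.3% (E-box). A match is a description of letters and shows no binding.

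In 9 of the 10 genes with the YY1 letters these lay on the gene's own strand, downstream of the start, and in 9 of 9 the ATG within them was the annotated start codon. Over all windows this was so for 113 of 191 matches (59.2%). These short windows are shown because the same letters, in capitals, stand at the point where translation begins in genes of both subunits.
MRPL22, chr5:154941100-154941122, plus strand: gagggcgaAAGATGGCGGCggca
MRPL38, chr17:75904860-75904886, minus strand: ccggagggAAGATGGCGGCgccctggt
MRPL46, chr15:88467362-88467388, minus strand: gagaacgaAAGATGGCGGCgcccgtaa
MRPL50, chr9:101398577-101398603, minus strand: tctcatcgAAGATGGCGGCgcgatctg
MRPS10, chr6:42217834-42217860, minus strand: ggaccggcAAGATGGCGGCgcggacag
MRPS18A, chr6:43687764-43687790, minus strand: ggtttttgAAGATGGCGGCcctcaagg
MRPS18B, chr6:30617855-30617881, plus strand: cgtacgtcAAGATGGCGGCgtctgtat
MRPS24, chr7:43869480-43869506, minus strand: cttggcccAAGATGGCGGCctccgtgt
MRPS30, chr5:44808952-44808978, plus strand: cgcgggcaAAGATGGCGGCggccaggt

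MRPL17 was the only member with the NRF1 letters, and its stretch is shown with them in capitals.
MRPL17, chr11:6683404-6683429, minus strand: gctctgatGCGCATGCGCaaacacgt

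The ETS letters lay just upstream of the start in several large subunit genes. By value, 48 of 49 large subunit genes were higher in OLFM4-knockout than in OLFM4-wild, against 56.7% of all genes tested. A higher level therefore does not set the genes with the letters apart. Stretches are shown for 4 genes with the letters and high values in that comparison. The ETS letters, or their reverse complement in MRPL18, are in capitals.
MRPL3, chr3:131502988-131503011, minus strand: aaaacgcaCCGGAAGTgggtccgg
MRPL20, chr1:1407322-1407345, minus strand: ccttcgccCCGGAAGTatcgcagg
MRPL47, chr3:179604662-179604685, minus strand: ttgagacgCCGGAAGTgacgctat
MRPL18, chr6:159790432-159790455, plus strand: gacttgctACTTCCGGgtcggtgg

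The first bases of the ETS letters were 32, 44 and 39 bases before the start in MRPL3, MRPL20 and MRPL47, and 27 before it in MRPL18. MRPL18 and MRPL47 were chosen for display after their values had been seen. MRPS12, the small subunit gene with the largest difference, held none of the 4 motifs, and the 150 bases before its start, in which no exon is annotated, are shown for that reason beside those of MRPL20, where capitals mark the ETS letters. The MRPS12 stretch fills most of the 181 bases between its start and that of SARS2, the gene for mitochondrial seryl-tRNA synthetase, which runs the other way.
MRPS12, chr19:38930794-38930943, plus strand: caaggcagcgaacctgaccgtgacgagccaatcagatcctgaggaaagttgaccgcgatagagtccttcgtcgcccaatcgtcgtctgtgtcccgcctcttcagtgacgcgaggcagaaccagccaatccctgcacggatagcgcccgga
MRPL20, chr1:1407294-1407443, minus strand: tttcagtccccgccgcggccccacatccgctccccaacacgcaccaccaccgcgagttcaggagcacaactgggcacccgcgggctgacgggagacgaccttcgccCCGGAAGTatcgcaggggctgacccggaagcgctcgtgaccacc

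**Figure D1:**
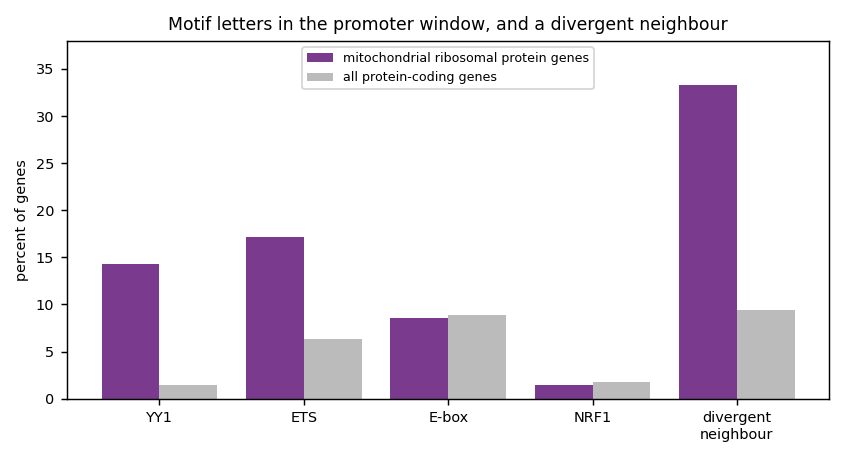
Percent of genes (y axis) whose promoter window held the letters named on the x axis, and percent with a protein-coding gene in divergent orientation within 1000 bases upstream, for mitochondrial ribosomal protein genes (purple) and all protein-coding genes (grey). The YY1 letters (14.3% against 1.47%), the ETS letters (17.1% against 6.31%) and divergent neighbours (33.3% against 9.37%) were more frequent among the mitochondrial ribosomal protein genes, and the E-box and NRF1 letters were not. The grey bars include genes below the filter on level.

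Levels are first given within each library, per length, as CPM per kilobase (kb) of annotated exon. All 78 genes passed the filter of a mean of 1 CPM over the 3 libraries. The lowest count of any member was 58, for MRPL23 in the OLFM4-wild library. The median level per length was 12.5 CPM per kb in OLFM4-wild, 19.4 in OLFM4-knockout and 14.3 under the OLFM4-active label.

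In the OLFM4-wild library the levels ran from 1.07 CPM per kb (MRPL23) to 92.4 (MRPL41), although nearly all of the proteins occur in a single copy per ribosome. MRPL41, a mitochondria-specific protein of the large subunit, had 92.4, 136 and 93.1 CPM per kb in OLFM4-wild, in OLFM4-knockout and under the OLFM4-active label. MRPS34, a mitochondria-specific protein of the small subunit, followed with 51.7, 87.7 and 56.2. MRPS16, the homologue of bacterial S16, had 42.3, 65.1 and 56.2, and MRPL51, which is mitochondria-specific, 40.0, 66.8 and 44.7. Below MRPL41 the order was less fixed, since MRPL51 lay above MRPS16 in OLFM4-knockout, and MRPS34 and MRPS16 had the same level to 3 digits under the OLFM4-active label.

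The lowest levels per length in the OLFM4-wild library were those of MRPL23, a homologue of a bacterial protein, and of MRPS25, MRPS33 and MRPS22, which are mitochondria-specific. In the same order of libraries, MRPS25 had 1.19, 1.38 and 1.13 CPM per kb, MRPS33 2.42, 3.87 and 2.61, and MRPS22 3.10, 5.41 and 4.68. For MRPS22 the place in the order depended on the transcript model, since it ranked 75th of 78 per kb of all annotated exon and 15th per kb of the canonical transcript. By the canonical transcript, in the OLFM4-wild library, MRPL41 was first too, and MRPS25 and MRPL23 were 74th and 75th rather than 77th and 78th. Across the 78 genes, the order of levels was much alike between libraries, with Spearman's rho of 0.96 for OLFM4-wild with OLFM4-knockout. This is across genes, which share each library and the same lengths, and the value over 12795 protein-coding genes was 0.95.

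**Figure D2:**
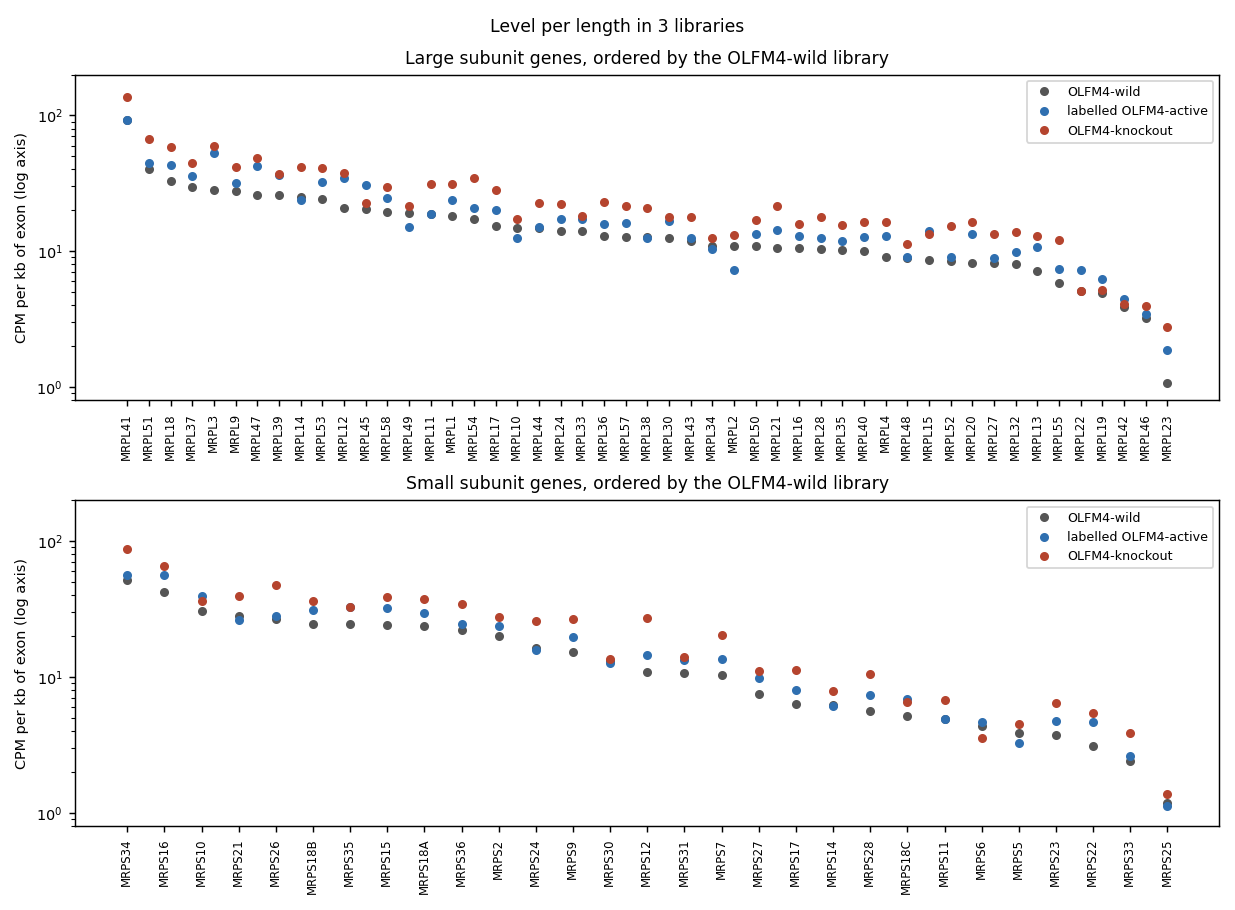
Level of each mitochondrial ribosomal protein gene in CPM per kb of exon (y axis, log scale) in the OLFM4-wild (grey), OLFM4-active-labelled (blue) and OLFM4-knockout (red) libraries, with genes on the x axis ordered by the OLFM4-wild library. MRPL41 lies highest in all 3 libraries, MRPL23 lies lowest of the large subunit genes in all 3, and the red points lie above the grey ones for 76 of 78 genes.

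In the first comparison, OLFM4-knockout against OLFM4-wild, nearly all of these genes were higher in the OLFM4-knockout library. Together they held 52196 counts, or 0.320% of the OLFM4-wild library, 224105 counts or 0.381% of the OLFM4-knockout library, and 83331 counts or 0.359% of the library labelled OLFM4-active. On the TMM scale their summed level was 2873 CPM (95% counting interval 2848 to 2897), 4366 (4348 to 4384) and 3488 (3464 to 3511). Such intervals, exact by Clopper and Pearson, cover counting error only.

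The median log2 fold change of the 78 genes, OLFM4-knockout over OLFM4-wild, was 0.65, with an interquartile range of 0.43 to 0.80 and a range of -0.28 to 1.35. Over the 16600 genes that passed the filter the median was 0.10. The counting interval lay wholly above 0 for 73 of the 78 genes, against 42.4% of all genes tested, and wholly below 0 for 1, against 29.8%. By value, 76 of 78 were above 0, against 56.7%. A log2 fold change above 1 was seen for 6 genes (7.69%), against 5.77% of all genes tested, and one below -1 for 0, against 7.56%. The members were therefore higher as a body and by a moderate amount, and the share with a large difference was near that of all genes. Their spread was narrow, with a width of the interquartile range of 0.37 against 0.81 over all genes tested. This was not particular to them, since the width was 0.32 for ribosomal proteins of the cytosol and 0.29 for genes of respiratory complex I.

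Scaling mattered for the size of these values. With library totals in place of TMM, every log2 fold change of this comparison was lower by 0.35. The median of all genes tested was then -0.26 and that of the members 0.29. Above 0 were 62 of 78 members, against 5399 of 16600 genes tested. Because every gene shifts by the same amount, the distance between the members' median and that of all genes, 0.55, cannot differ between these scalings. The same holds for the count of members above the median of all genes, 73 of 78. The same change of scaling lowers every value by 0.11 for the library labelled OLFM4-active over OLFM4-wild and by 0.24 for OLFM4-knockout over the library labelled OLFM4-active. Any positive value smaller than the shift of its comparison therefore lies below 0 with library totals, for the genes and lists named below too.

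The large subunit had a median of 0.71, with 46 of 49 intervals above 0, and the small subunit 0.62, with 27 of 29. Proteins with a bacterial homologue (48 genes) had a median of 0.67 and mitochondria-specific ones (30 genes) 0.62. The highest of these group medians was 0.75, for the 30 large subunit proteins with a bacterial homologue, and the lowest 0.59, for the 18 such proteins of the small subunit.

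Among the large subunit genes, MRPL23, which encodes the homologue of bacterial L23 at the mouth of the exit tunnel, had 58 counts in OLFM4-wild, 421 in OLFM4-knockout and 133 under the OLFM4-active label, or 3.19, 8.20 and 5.57 CPM. Its log2 fold change in OLFM4-knockout against OLFM4-wild was the highest of all members, at 1.35 (95% counting interval 0.96 to 1.78), and it also had the fewest counts and the widest interval. MRPL3, the homologue of L3 beside the peptidyl transferase centre, had 1396, 8241 and 3407 counts, or 76.8, 161 and 143 CPM. Its value of 1.06 (0.98 to 1.15) was therefore far more precise.

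MRPL55, MRPL21, MRPL54 and MRPL20 completed the highest 6 of the large subunit. MRPL55, which has a bacterial homologue, had 200, 1175 and 332 counts in the same order of libraries and a log2 fold change of 1.05 (0.84 to 1.28). MRPL21, the homologue of L21, had 543, 3104 and 976 counts and a value of 1.02 (0.88 to 1.15). MRPL54, a mitochondria-specific protein, had 308, 1756 and 488 counts and a value of 1.01 (0.84 to 1.19). For these 3 genes the library labelled OLFM4-active lay nearer to OLFM4-wild than to OLFM4-knockout. MRPL20, the homologue of L20, had 415, 2314 and 893 counts and a value of 0.98 (0.83 to 1.14), and 10.6% of its exonic bases overlap the small RNA pseudogene RN7SL657P on the same strand.

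At the other end of the large subunit, MRPL22, which encodes the homologue of L22 lining the exit tunnel, had 487, 1370 and 922 counts, or 26.8, 26.7 and 38.6 CPM. Its log2 fold change in OLFM4-knockout against OLFM4-wild was -0.01 (-0.16 to 0.15), so the interval included 0 on the TMM scale. The intervals of MRPL42, which is mitochondria-specific (0.05, -0.04 to 0.15), and MRPL19, the homologue of L19 (0.08, -0.04 to 0.20), included 0 as well. This call rests on the scaling, since with library totals MRPL22, MRPL42 and MRPL19 were at -0.36, -0.30 and -0.28. MRPL45, a mitochondria-specific protein by which the ribosome is held at the inner membrane, had 634, 1996 and 1252 counts and a value of 0.16 (0.03 to 0.29). MRPL49, also mitochondria-specific, had 1070, 3384 and 1108 counts and 0.16 (0.06 to 0.26), and MRPL34, the homologue of L34, had 305, 983 and 381 counts and 0.19. With library totals MRPL45, MRPL49 and MRPL34 were lower in OLFM4-knockout than in OLFM4-wild, at -0.20, -0.19 and -0.16.

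In the small subunit, MRPS12, which encodes the homologue of S12 at the decoding centre, had 347 counts in OLFM4-wild, 2437 in OLFM4-knockout and 613 under the OLFM4-active label, or 19.1, 47.5 and 25.7 CPM. Its log2 fold change in OLFM4-knockout against OLFM4-wild was 1.31 (1.15 to 1.48), the only value above 1 in this subunit. MRPS12 spans chr19:38930944-38933168 on the plus strand (GRCh38) and shares no exonic base with another gene on that strand. MRPS7, the homologue of S7 in the head of the subunit, had 627, 3488 and 1077 counts and a value of 0.98 (0.85 to 1.10). MRPS28, which has a bacterial homologue, had 185, 979 and 319 counts and a value of 0.90 (0.68 to 1.14), with 35.8% of its exonic bases shared with another gene. MRPS26, which is mitochondria-specific, had 497, 2497 and 685 counts and a value of 0.83 (0.69 to 0.97).

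MRPS6, the homologue of S6, went the other way. It had 337 counts in OLFM4-wild, 785 in OLFM4-knockout and 480 under the OLFM4-active label, or 18.5, 15.3 and 20.1 CPM. Its log2 fold change of -0.28 (-0.46 to -0.09) was the only one among 78 with an interval wholly below 0. MRPS6 lies at chr21:34073224-34143034 on the plus strand (GRCh38), overlaps SLC5A3, the gene of a myo-inositol transporter, over part of its exons (9.48% of exonic bases shared with other genes on that strand) and has 2 annotated pseudogenes. MRPS30, a mitochondria-specific protein, had 1480, 4306 and 1876 counts, and its value of 0.04 (-0.04 to 0.13) on the TMM scale was -0.31 with library totals. MRPS25 (0.21, 0.05 to 0.38) and MRPS5, the homologue of S5 (0.23, 0.13 to 0.34), were slightly higher in OLFM4-knockout, but with library totals they were at -0.14 and -0.12.

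**Figure D3:**
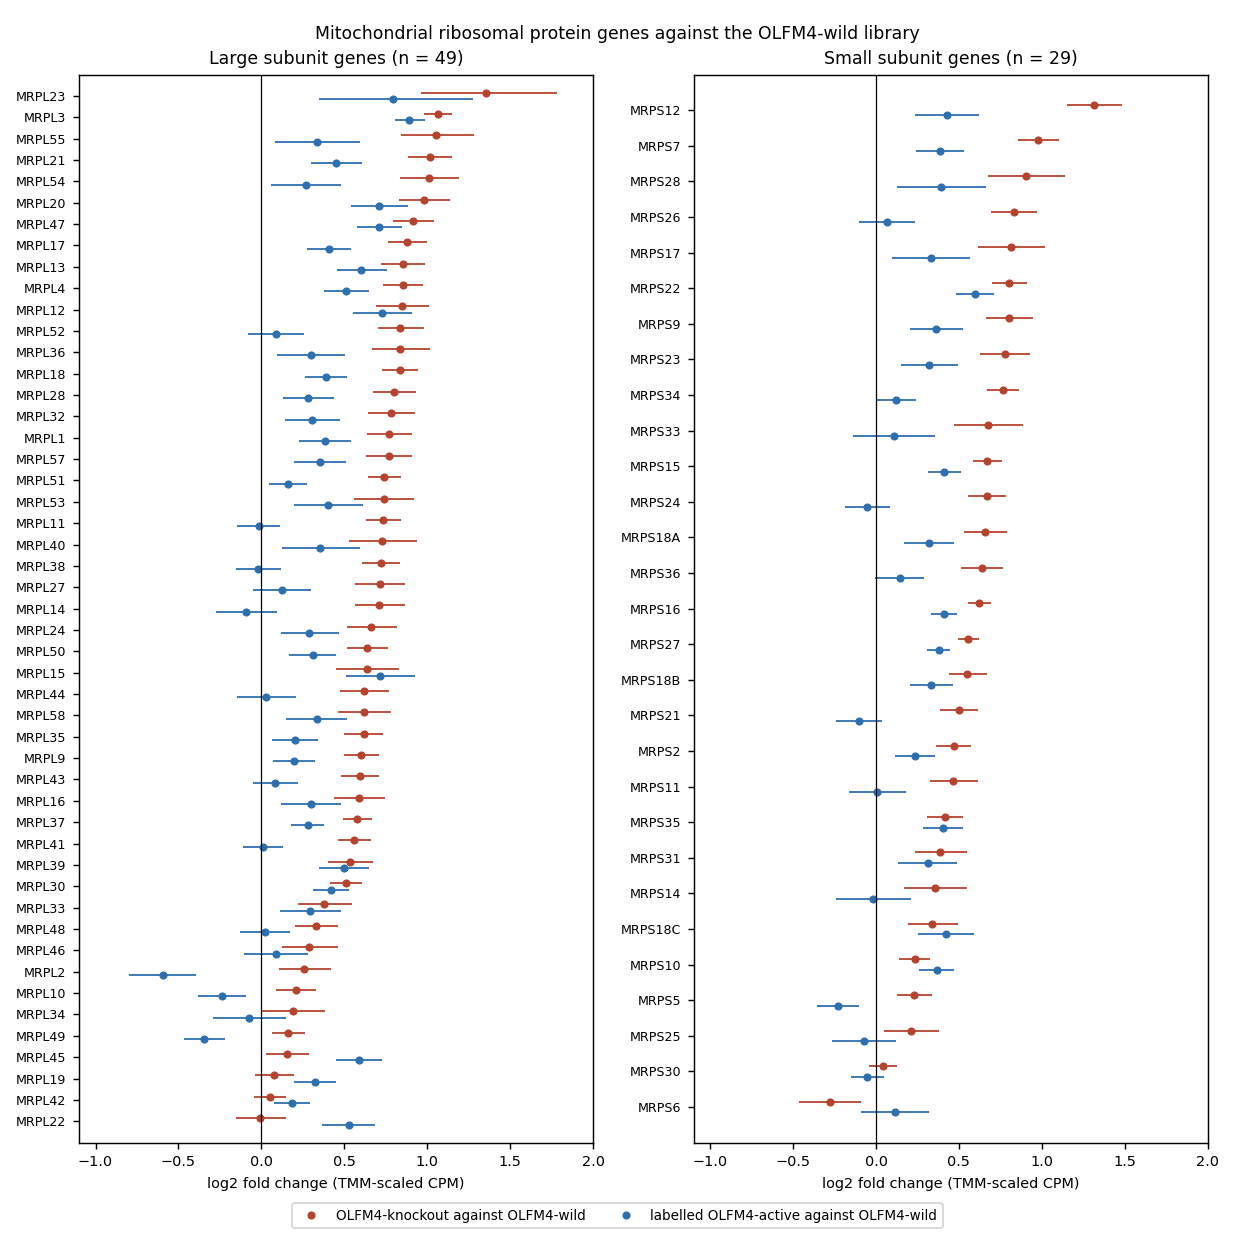
Log2 fold change of TMM-scaled CPM (x axis) of each mitochondrial ribosomal protein gene against the OLFM4-wild library, for OLFM4-knockout (red) and the library labelled OLFM4-active (blue), with 95% counting intervals as bars, in the large (left) and small (right) subunit. The red points lie right of 0 for 76 of 78 genes, with MRPL23 and MRPS12 at the top, and the blue points for 65 of 78.

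In a second comparison, chosen for this description, the library labelled OLFM4-active was set against the same OLFM4-wild library. Most of the genes were again higher, by less. The OLFM4-wild library is the reference of both comparisons, so its own level enters both sets of values. The median log2 fold change was 0.31 over the 78 genes and 0.05 over all genes tested. The interval lay wholly above 0 for 53 genes, against 35.2% of all genes tested, and wholly below 0 for 4, against 28.1%. By value, 65 were above 0, against 53.9%. No member was above 1, against 3.78% of all genes tested, or below -1, against 6.73%. With library totals the median was 0.19, with 55 of 78 genes above 0, against 7325 of 16600 genes tested. By construction, 61 of 78 were above the median of all genes under both scalings. The large and small subunits had medians of 0.30 and 0.32, whereas the 48 genes with a bacterial homologue had 0.33 and the 30 mitochondria-specific ones 0.17.

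MRPL3 was highest in this comparison, at 0.89 (0.80 to 0.98), followed by MRPL23 at 0.80 (0.35 to 1.27). MRPL12, which forms the stalk that recruits translation factors, had 381 counts in OLFM4-wild, 1936 in OLFM4-knockout and 829 under the OLFM4-active label. Its log2 fold change was 0.73 (0.55 to 0.91) here and 0.85 (0.69 to 1.01) in OLFM4-knockout against OLFM4-wild, and 69.5% of its exonic bases overlap an unnamed gene on the same strand. MRPL15, the homologue of L15, had 278, 1220 and 601 counts, with 0.72 (0.51 to 0.93) here and 0.63 (0.45 to 0.83) in the OLFM4-knockout comparison.

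The lowest values in this comparison belonged to MRPL2, MRPL49, MRPL10 and MRPS5, and these 4 were the members with an interval wholly below 0. MRPL2, the homologue of L2 beside the peptidyl transferase centre, had 433 counts in OLFM4-wild, 1465 in OLFM4-knockout and 377 under the OLFM4-active label, or 23.8, 28.5 and 15.8 CPM. It was lower in the library labelled OLFM4-active by -0.59 (-0.80 to -0.39) and higher in OLFM4-knockout by 0.26 (0.10 to 0.42), although the latter was -0.094 with library totals. MRPL49 was at -0.34 (-0.47 to -0.22), MRPL10, which anchors the stalk, at -0.24 (-0.38 to -0.09), and MRPS5 at -0.23 (-0.35 to -0.10). The stalk proteins MRPL10 and MRPL12, which bind each other, thus lay on opposite sides of 0 in this comparison.

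Set directly against the library labelled OLFM4-active, the OLFM4-knockout library had the higher level for most members. The median was 0.38 over the 78 genes against 0.08 over all genes tested, with 66 intervals wholly above 0 (39.8% of all genes tested) and 6 wholly below 0 (28.0%). By value 70 were above 0 (56.7%), and none was above 1 (2.95%) or below -1 (3.39%). With library totals the median was 0.14, and 41 intervals lay above 0, against 22.5% of all genes tested. By construction, 67 of 78 genes were above the median of all genes under both scalings. MRPS12 had the highest value, 0.89 (0.76 to 1.02), and MRPL22 the lowest, -0.53 (-0.65 to -0.41). MRPL45 at -0.43 (-0.53 to -0.33), MRPS6 at -0.39 (-0.56 to -0.23), MRPL19 at -0.25, MRPS10 at -0.13 (named for completeness after its value was seen) and MRPL42 at -0.13 were also lower in OLFM4-knockout than in the library labelled OLFM4-active.

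**Figure D4:**
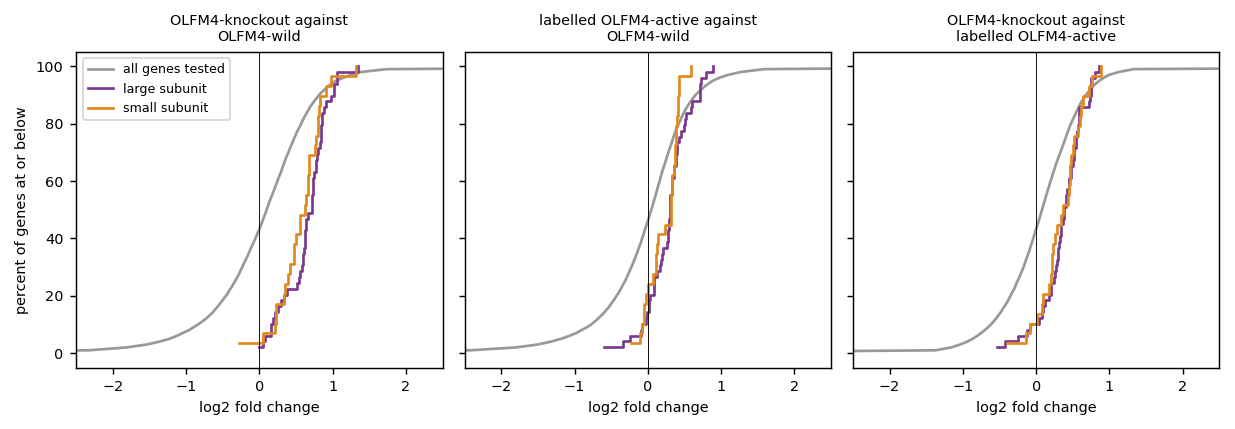
Percent of genes (y axis) at or below each log2 fold change (x axis) in the 3 pairs of libraries, for all 16600 genes tested (grey), the large subunit (purple) and the small subunit (orange). Both subunits lie right of the grey curve through most of its range in each panel, with medians of 0.71 and 0.62 in the left panel, and their curves are steeper.

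Ordering the 3 libraries gene by gene gave the same picture. By value, OLFM4-knockout was highest for 70 genes and the library labelled OLFM4-active for 8, and OLFM4-wild was highest for 0. OLFM4-wild was lowest for 63 genes, the library labelled OLFM4-active for 13 and OLFM4-knockout for 2, MRPL22 and MRPS6. The shares of all genes tested were not computed for these counts by value, so the counts are description only. In the counts that follow, libraries were ordered where their counting intervals of CPM did not overlap. The intervals of the log2 fold changes were not used for them. By this rule the full order with OLFM4-knockout highest and OLFM4-wild lowest held for 36 genes, against 9.02% of all genes tested. OLFM4-knockout was above both others, by the same rule, for 60 genes (23.9% of all genes tested), and the library labelled OLFM4-active for 5 (11.9%).

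The 3 genes of the MRPS18 family descend from bacterial S18. MRPS18A and MRPS18B, whose start codons lie within the YY1 letters shown above, had 599, 2668 and 982 counts and 789, 3268 and 1308 counts. Their log2 fold changes were 0.66 (0.53 to 0.79) and 0.55 (0.44 to 0.67) in OLFM4-knockout against OLFM4-wild, and 0.32 (0.17 to 0.47) and 0.33 (0.21 to 0.46) for the library labelled OLFM4-active. MRPS18C had 458, 1639 and 807 counts and 0.34 (0.19 to 0.49) and 0.42 (0.26 to 0.59). For MRPS18C the value in OLFM4-knockout over the library labelled OLFM4-active was -0.08 (-0.20 to 0.04) on the TMM scale and -0.32 with library totals, whereas on the TMM scale MRPS18A and MRPS18B were higher in OLFM4-knockout by 0.34 (0.23 to 0.45) and 0.22 (0.12 to 0.31). MRPS18C has 3 annotated pseudogenes, MRPS18B has 2 and MRPS18A has 1.

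In structures of the ribosome MRPS18A and MRPS30 are parts of the large subunit in spite of their symbols. Counting them there gave medians of 0.66 for the large (51 genes) and 0.62 for the small subunit (27 genes) in OLFM4-knockout against OLFM4-wild. In OLFM4-knockout over the library labelled OLFM4-active the medians were 0.37 and 0.44 by location and 0.39 and 0.37 by symbol, so the order of the subunits depended on how these 2 genes were placed. MRPS36 has the symbol KGD4 in RefSeq, and it was counted as a ribosomal protein by its MRPS symbol alone. Without it the median of 77 genes in OLFM4-knockout against OLFM4-wild was 0.66.

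Proteins of the same ribosome with other symbols were described beside the members. GADD45GIP1 sits in the large subunit, and DAP3, PTCD3, CHCHD1 and AURKAIP1 in the small subunit. All 5 were higher in OLFM4-knockout than in OLFM4-wild by intervals, against 42.4% of all genes tested, with a median of 0.63. With library totals 4 of 5 were above 0, against 5399 of 16600 genes tested, DAP3 being at -0.13. AURKAIP1 had 445, 2597 and 618 counts and the highest value, 1.05 (0.90 to 1.20). DAP3, which binds guanine nucleotides and takes part in apoptosis, had 930, 3072 and 1371 counts and the lowest, 0.23 (0.12 to 0.33). GADD45GIP1, CHCHD1 and PTCD3 lay at 0.63, 0.70 and 0.55. For the library labelled OLFM4-active the median of the 5 was 0.16.

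Counts of intervals in the 3 lists that follow are to be read beside the shares of all genes tested, which were 42.4% above and 29.8% below 0 in OLFM4-knockout over OLFM4-wild and 35.2% and 28.1% for the library labelled OLFM4-active. The ribosome is built with the help of GTPases, helicases and RNA-modifying enzymes. Of 29 genes of assembly and rRNA modification, 20 had intervals above 0 and 3 below 0 in OLFM4-knockout against OLFM4-wild, with a median of 0.41, and 12 and 6 for the library labelled OLFM4-active, with a median of 0.07, and these last counts were near the shares of all genes. DDX28, a helicase of large subunit assembly, had 242, 1582 and 562 counts and was highest at 1.21 (1.01 to 1.41). NOA1, a GTPase of small subunit assembly, had 795, 1868 and 967 counts and was lowest at -0.27 (-0.39 to -0.14).

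Of 17 genes of mitochondrial translation, 12 were above and 1 below 0 by intervals in OLFM4-knockout against OLFM4-wild (median 0.43), and 11 and 1 for the library labelled OLFM4-active (median 0.29). SLIRP, which stabilizes mitochondrial messages together with LRPPRC, had 683, 4110 and 1292 counts and a value of 1.09 (0.97 to 1.21). MTRFR, a rescue factor for stalled ribosomes, had 425, 1021 and 424 counts and -0.23 (-0.40 to -0.07).

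Of 21 genes that maintain and transcribe mitochondrial DNA, 17 were above and 1 below 0 by intervals in OLFM4-knockout against OLFM4-wild (median 0.42), and 15 and 1 for the library labelled OLFM4-active (median 0.27). TFB2M, the initiation factor of the mitochondrial RNA polymerase, had 119, 907 and 481 counts and was higher in both, by 1.43 (1.15 to 1.72) and 1.62 (1.33 to 1.92). POLG2, the accessory subunit of the mitochondrial DNA polymerase, had 117, 273 and 153 counts and -0.28 (-0.59 to 0.05). The mitochondrial rRNA genes MT-RNR1 and MT-RNR2 were listed at 0 counts in all 3 libraries, so the RNA core of the ribosome could not be compared with its proteins.

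**Figure D5:**
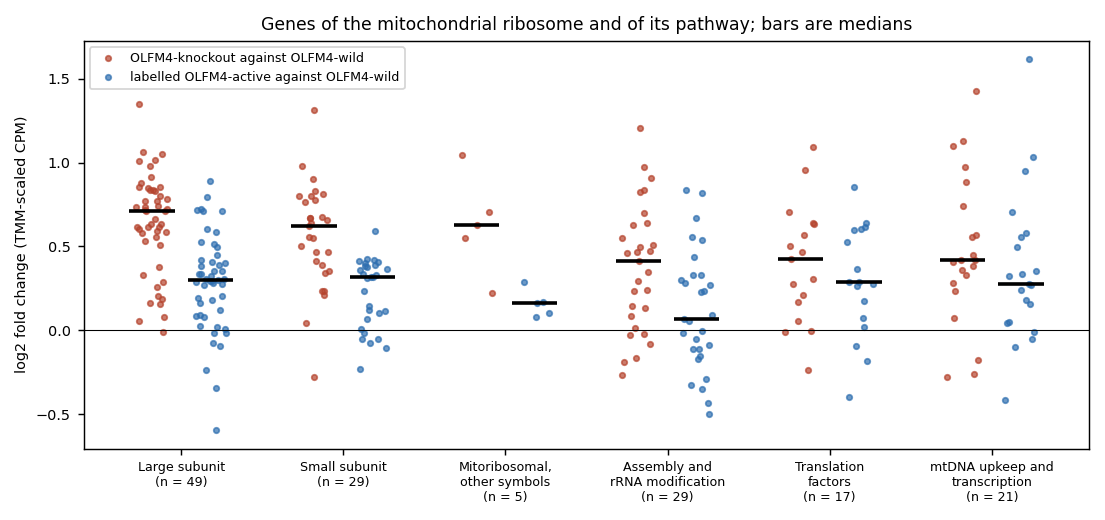
Log2 fold change of TMM-scaled CPM (y axis) against the OLFM4-wild library, for OLFM4-knockout (red) and the library labelled OLFM4-active (blue), in the 2 subunits and in 4 lists of genes of the same pathway (x axis), with 1 point per gene and bars for medians. The red medians run from 0.41 in the assembly list to 0.71 in the large subunit, and the blue median of the assembly list, 0.07, is the lowest.

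Ribosomal proteins of the cytosol, 77 genes, had a median of 0.45 in OLFM4-knockout against OLFM4-wild and 0.06 for the library labelled OLFM4-active. The 37 genes of respiratory complex I, some of whose partners are made on mitochondrial ribosomes, had 0.70 and 0.12. The members' own medians in these comparisons were 0.65 and 0.31. In OLFM4-knockout against OLFM4-wild, intervals lay above 0 for 73 of the 77 cytosolic genes and 36 of the 37 complex I genes. The members had 73 of 78, and the share of all genes tested was 42.4%. With library totals the OLFM4-knockout medians were 0.10 (cytosolic ribosome), 0.35 (complex I), 0.060 (assembly), 0.075 (translation) and 0.064 (mitochondrial DNA), against 0.29 for the members and -0.26 for all genes tested. The library labelled OLFM4-active thus differed from OLFM4-wild by more in the mitochondrial ribosomal proteins than in the cytosolic ones, a difference between medians for which there was no test.

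Gene length moved with the values in OLFM4-knockout. The members are short, with a median canonical transcript of 1242 bases against 3291 over tested protein-coding genes. Across the 78 genes, canonical length and the log2 fold change in OLFM4-knockout against OLFM4-wild had a Spearman's rho of -0.41, and across 12795 protein-coding genes -0.32, whereas for the library labelled OLFM4-active these were -0.05 and 0.03. Protein-coding genes with an exonic length between the members' quartiles had a median of 0.30 in OLFM4-knockout against OLFM4-wild, shorter ones 0.36 and longer ones 0.03. The members' median of 0.65 was above that of genes of like length, and the part of length in it was not tested. In the library labelled OLFM4-active the median of genes of like length was 0.04. In OLFM4-knockout over the library labelled OLFM4-active, rho was -0.33 across members and -0.43 across protein-coding genes, and the medians were 0.28 for genes of like length and 0.43 for shorter ones, beside 0.38 for the members. In that comparison the members were thus below the median of shorter genes.

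Divergent neighbours were frequent, as 26 of the 78 genes (33.3%) had another protein-coding gene starting within 1000 bases upstream on the opposite strand, against 9.37% of 19228 protein-coding genes. The 19228 include genes below the filter on level, which all members passed, and the share among genes that passed it was not computed. Members with such a neighbour had a median of 0.67 in OLFM4-knockout against OLFM4-wild and members without one 0.65. The neighbours that are not members, of which 23 passed the filter, had a median of 0.23, with 14 of 23 above 0 against 56.7% of all genes tested, a share near that of all genes.

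Several pairs, chosen after their values were seen, show the range. SARS2, opposite MRPS12, had 425, 2059 and 665 counts and 0.78 (0.63 to 0.93) in OLFM4-knockout against OLFM4-wild. TCP1, a subunit of the cytosolic chaperonin opposite MRPL18, was also at 0.78 (0.73 to 0.83), beside 0.83 for MRPL18. PSMA2, a proteasome subunit opposite MRPL32, was at 0.74 beside 0.78 for MRPL32. By contrast, GGA3, a sorting adaptor opposite MRPS7, was at -0.28 (-0.42 to -0.14), and SKA3, a kinetochore protein opposite MRPL57, at -0.40 (-0.53 to -0.27), beside 0.98 for MRPS7 and 0.77 for MRPL57.

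FAU, which encodes a ribosomal protein of the cytosol and lies opposite MRPL49, was at 0.71 (0.65 to 0.78) while MRPL49 was at 0.16. TWNK, the helicase of mitochondrial DNA, starts 46 bases from MRPL43, and it was higher in the library labelled OLFM4-active by 1.03 (0.86 to 1.21), whereas MRPL43 was at 0.08. In 1 pair both genes are members, MRPL46 and MRPS11, whose starts lie 320 bases apart, and they were at 0.29 and 0.47 in OLFM4-knockout against OLFM4-wild and at 0.09 and 0.01 for the library labelled OLFM4-active.

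Members with the ETS letters in their promoter window had a median of 0.78 in OLFM4-knockout against OLFM4-wild and those without 0.61. Of the 12 with the letters, 10 were large subunit genes, and that subunit had the higher median, 0.71 against 0.62. The part of the subunit in this difference was not tested. Over all tested protein-coding genes with a window, the medians were 0.24 with and 0.08 without the letters. Members with the YY1 letters had a median of 0.59 and those without 0.67, and members with the E-box 0.46 and those without 0.67. Over all tested protein-coding genes with a window, these 2 differences ran the other way. The medians there were 0.23 with and 0.10 without the YY1 letters, and 0.16 with and 0.09 without the E-box. Both the YY1 letters and the E-box were in the windows of MRPL22, at -0.01, and MRPL36, at 0.84. The medians of members with the letters rest on 12 (ETS), 10 (YY1) and 6 (E-box) genes and had no test.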

How the data were processed

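RNA of 3 RWPE1 libraries, 1 per genotype label, was prepared with a stranded total RNA kit with rRNA depletion. The authors aligned the reads with HISAT2 to the human genome (GRCh38, GENCODE annotation), named cutadapt in their processing notes, and deposited raw read counts per gene from featureCounts, in which uniquely mapped, strand-matched pairs were counted. Reads that fit several gene copies were thus not counted, and 36 of the 78 members have an annotated pseudogene, 15 overlap another gene on the same strand and 34 have neither.

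From the counts, TMM factors were computed with edgeR 4.0.16 (R 4.3.3) over all 58037 genes. The factors were 1.11 (OLFM4-wild), 0.872 (OLFM4-knockout) and 1.03 (labelled OLFM4-active). After that step, 45 copies from the pseudoautosomal region of chromosome Y were left out. Log2 fold changes are ratios of TMM-scaled CPM with 0.5 counts added. Intervals of log2 fold changes are exact conditional Clopper-Pearson intervals at 95% on both counts, and all intervals cover counting error only. The background was the 16600 genes whose mean reached 1 CPM. Gene positions, lengths and overlaps came from GENCODE 44, matched by gene identifier (56948 of 57992), and promoters from RefSeq. With 1 library per group no model was fitted and no p-value computed, although the study's methods name limma-voom. Total counts differed 3.61-fold between libraries, so intervals are narrowest for OLFM4-knockout.

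The rule for members uses symbols alone, but these genes and the gene lists were chosen for description with earlier results of these data known. Genes were named by rank: the 6 highest and 6 lowest of the large and 4 and 4 of the small subunit in OLFM4-knockout against OLFM4-wild, the 4 highest and 4 lowest for the library labelled OLFM4-active and by level per length, the MRPS18 genes, the 5 proteins with other symbols, and the extremes of each pathway list. Alternatives were other scalings, offsets, filters, thinning to the smallest library total and other sets of members. The calculations were tested on simulated data.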

Additional observations from a re-analysis of the deposited data

How the results depend on the processing

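The median of the 78 genes stayed above 0 in all 3 pairs of libraries under every alternative run, at 0.29 to 0.75 in OLFM4-knockout against OLFM4-wild, 0.19 to 0.33 for the library labelled OLFM4-active over OLFM4-wild and 0.14 to 0.45 for OLFM4-knockout over the library labelled OLFM4-active. Library totals moved the values most, to a median of 0.29 in the first pair and 0.14 in the third. In the third, 41 rather than 66 intervals lay above 0, against 22.5% rather than 39.8% of all genes tested. Members above 1 in OLFM4-knockout against OLFM4-wild fell from 6 of 78 to 2 with upper quartile factors and to 0 with library totals. The share of all genes tested fell from 5.77% to 4.49% and to 2.22%. The members' share was thus above that of all genes with TMM and below it with the other scalings named. Among the 34 members without overlaps or pseudogenes, intervals lay above 0 for 33, 21 and 33 in the 3 pairs, fewer by construction since fewer genes entered. The shares of all genes tested in these pairs were 42.4%, 35.2% and 39.8%. The summed level was 3200 CPM (OLFM4-wild), 3809 (OLFM4-knockout) and 3588 (labelled OLFM4-active) with library totals, and 3850, 4828 and 4252 CPM with protein-coding counts as the library size.

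With library totals, 11 members with intervals above 0 in OLFM4-knockout against OLFM4-wild turned below 0, and those named by rule were MRPL10 (-0.15), MRPL2 (-0.094), MRPL34 (-0.16), MRPL45 (-0.20), MRPL49 (-0.19), MRPS18C (-0.013), MRPS25 (-0.14) and MRPS5 (-0.12). In OLFM4-knockout over the library labelled OLFM4-active, 11 members turned as well, among them MRPL12 (-0.12), MRPL3 (-0.067), MRPS16 (-0.024), MRPS18B (-0.020), MRPS22 (-0.029) and MRPS30 (-0.14, and -0.0097 with upper quartile factors). A change of scaling adds the same amount to every gene, so these are the members nearest to 0. TMM factors from the OLFM4-wild and OLFM4-knockout libraries alone, and levels per length by the canonical transcript, were alternatives chosen after seeing the data. No paired analysis was possible because each group held 1 library. With 1 library per genotype, differences between lines, cultures and preparations cannot be told apart from those between genotypes.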

Other observations

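The count table also held 86 entries named after mitochondrial ribosomal proteins that are not protein-coding, 79 of them pseudogenes and 7 long noncoding RNAs. No count was seen in any library for 52 of them, and 6 had a mean of at least 1 CPM. Pseudogene entries took 0.51 counts per 100 member counts in OLFM4-wild, 0.32 in OLFM4-knockout and 0.45 under the OLFM4-active label. The pseudogenes MRPS31P5 and MRPS31P4 had 128, 347 and 142 and 84, 210 and 139 counts, and their log2 fold changes in OLFM4-knockout against OLFM4-wild were -0.06 (95% counting interval -0.36 to 0.24) and -0.18 (-0.55 to 0.21). They thus did not share the higher level that most members had in the OLFM4-knockout library.

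MRPL3P1, a processed pseudogene of MRPL3, had 4, 51 and 17 counts in the same order of libraries, a ratio of 2.02 (0.73 to 4.10) on the log2 scale in OLFM4-knockout against OLFM4-wild beside 1.06 for MRPL3. It had under 1% of the counts of MRPL3 in each library, and its part in the value of MRPL3 was not tested.

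The antisense RNA MRPS9-AS1 had 141, 711 and 200 counts. It was higher in OLFM4-knockout than in OLFM4-wild by 0.83 (0.57 to 1.11), beside 0.80 (0.67 to 0.94) for MRPS9. MRPL20-AS1, on the opposite strand, overlaps the end of MRPL20. It had 277, 914 and 294 counts and a smaller difference of 0.22 (0.03 to 0.42), beside 0.98 for MRPL20. These entries were chosen after their values were seen.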
